A study of Mus musculus with 4 samples.

Results

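Cathepsins are a group of proteases, many of which act in the lysosome. The 10 cathepsin genes described here, Ctsa, Ctsb, Ctsc, Ctsd, Ctsf, Ctsh, Ctsk, Ctsl, Ctss and Ctsz, were chosen by name and matched by Entrez identifier to the table of read counts. All 10 were present among its 12700 genes. The libraries were made from poly(A) RNA of C57BL/6 mice aged 9 months, either Ids knock-out (Ids-ko, genotype Ids-/-) or wild type (wt) littermates. CxH and CxWT are the cerebral cortex of Ids-ko and wt mice, and MH and MWT are an area called M, which holds midbrain, diencephalon and hippocampus and, by the dissection used, also thalamus, hypothalamus and striatum. Each of the 4 libraries was a pool of RNA from 7 mice and was sequenced without a replicate. Both areas were dissected from each brain, by which CxH and MH, and likewise CxWT and MWT, come from the same animals as labelled. Without replicates, tests compare libraries and not conditions. The knock-out mice were of one line, and every cell type of the tissue was sequenced together. Hence fewer cells of a type and less RNA per cell cannot be told apart.

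The lysosome degrades proteins, lipids and glycosaminoglycans taken up from outside or delivered by autophagy. Ids encodes iduronate sulfatase, a lysosomal enzyme of heparan and dermatan sulfate degradation whose loss causes Hunter syndrome, a lysosomal storage disease. Cathepsins are made as inactive precursors, sorted to the lysosome largely by mannose phosphate receptors, and activated there at low pH. Ctsb, Ctsc, Ctsf, Ctsh, Ctsk, Ctsl, Ctss and Ctsz encode the 8 cysteine proteases of the group, Ctsd an aspartic protease and Ctsa a serine carboxypeptidase. In brain, neurons and glia share several of them, whereas Ctss is chiefly a microglial gene.

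The labels were checked against Ids and against markers of the brain areas. Ids itself was at 135 reads per 1000000 aligned reads (RPM) in CxH and 354 in CxWT, and 368 in MH and 155 in MWT. It was thus 2.61-fold lower in the library labelled CxH than in CxWT, but 2.37-fold higher in the library labelled MH than in MWT. Counts per gene do not show which exons the reads came from. Summed markers of cortical excitatory neurons (9 genes, among them Tbr1 and Neurod6) were at 1682 RPM in CxH and 233 in CxWT, and 1522 in MH and 172 in MWT. Summed markers of midbrain and diencephalon (13 of 17) were at 26.8, 478, 38.1 and 428 RPM in the same order, with En1 at 0 in MH. The area markers therefore separated the libraries labelled H from those labelled WT, and did not separate Cx from M. The libraries labelled CxH and MH carried cortical markers, and those labelled CxWT and MWT carried midbrain markers, while CxH and MWT had the lower Ids. Whether labels or columns were exchanged was not tested, and if they were, the pairs below would not compare the genotypes and areas that their names give. By these values alone, CxH vs. MH and CxWT vs. MWT set libraries with like area markers and unlike Ids side by side. CxH vs. MWT and MH vs. CxWT set libraries with unlike area markers and like Ids side by side, and in CxH vs. CxWT and MH vs. MWT both differ. No exchange of a single pair of labels would bring both Ids and the area markers to the labels. A rotation of 3 labels would, with the library labelled MH as CxWT, that labelled CxWT as MWT and that labelled MWT as MH, in which case CxH vs. MH and MWT vs. CxWT would be the comparisons of Ids-ko with wt. Each direction below is that of the libraries as labelled, and the pairs CxH vs. MWT and MH vs. CxWT are given besides the 4 comparisons of the study.

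The 250 bases before the gene start of 5 cathepsins are shown because these members share, or in the case of Ctss lack, the E-box CACGTG. This is the core of the element bound by the MiT/TFE factors, which regulate lysosomal genes. The sequences are from RefSeq (GRCm38.p6) and run 5′ to 3′ on the strand of the gene, and capitals mark CACGTG or, where it is complete, TCACGTGA. The windows are chr7:142387828-142388077 (minus strand) for Ctsd, chr2:164833523-164833772 (plus) for the second of the gene starts of Ctsa, chr19:4854915-4855164 (plus) for Ctsf, chr13:64370521-64370770 (minus) for Ctsl and chr3:95526536-95526785 (plus) for Ctss.
Ctsd: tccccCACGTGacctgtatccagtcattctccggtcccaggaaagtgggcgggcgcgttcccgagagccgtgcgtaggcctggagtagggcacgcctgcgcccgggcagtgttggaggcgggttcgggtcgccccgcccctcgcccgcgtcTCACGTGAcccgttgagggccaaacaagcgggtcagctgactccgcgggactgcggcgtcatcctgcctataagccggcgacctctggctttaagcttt
Ctsa: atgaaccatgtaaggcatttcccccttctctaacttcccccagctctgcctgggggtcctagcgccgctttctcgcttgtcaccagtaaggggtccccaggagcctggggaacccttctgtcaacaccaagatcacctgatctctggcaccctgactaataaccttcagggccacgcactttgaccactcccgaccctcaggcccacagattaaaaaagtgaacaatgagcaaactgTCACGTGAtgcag
Ctsf: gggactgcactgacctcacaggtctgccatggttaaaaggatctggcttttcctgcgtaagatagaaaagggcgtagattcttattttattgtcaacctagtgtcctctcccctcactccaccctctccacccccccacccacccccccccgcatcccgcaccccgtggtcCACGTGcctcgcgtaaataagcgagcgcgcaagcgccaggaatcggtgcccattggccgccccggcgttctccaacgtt
Ctsl: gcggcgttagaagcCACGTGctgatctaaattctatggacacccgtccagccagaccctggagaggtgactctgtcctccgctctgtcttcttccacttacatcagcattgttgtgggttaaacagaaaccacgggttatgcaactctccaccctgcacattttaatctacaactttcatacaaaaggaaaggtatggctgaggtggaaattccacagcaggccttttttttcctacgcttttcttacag
Ctss: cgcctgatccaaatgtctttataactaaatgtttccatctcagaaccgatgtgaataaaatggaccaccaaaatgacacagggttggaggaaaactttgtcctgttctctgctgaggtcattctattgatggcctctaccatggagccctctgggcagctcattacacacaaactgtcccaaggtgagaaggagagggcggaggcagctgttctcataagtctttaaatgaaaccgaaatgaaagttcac
RefSeq windows were matched for 8 of the 10 members, Ctsa with 2 of them, which made 9 windows; Ctsb and Ctsh had no entry. CACGTG, which reads the same on both strands, was in 4 of the 9 windows and in 6.02% of all 32851 windows of this length. The longer TCACGTGA, which contains CACGTG, was in 2 of the 9, those of Ctsd and Ctsa, and in 0.785% of all. In Ctsd, CACGTG began 245 and 98 bases before the gene start, in Ctsl 236, in Ctsf 79 and in Ctsa 12. GAGGAAGT, of the type bound by PU.1, a factor of the myeloid lineage, was found on either strand in 1 of the 9 (Ctsc, 151 bases before the start) and in 2.44% of all. These are matches of letters and not bound sites. The members with CACGTG include Ctsd, which differed strongly between libraries, as well as Ctsf, which differed least.

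Per unit of length, Ctsd and Ctsb stood far above the rest. Reads per kilobase of the longest coding transcript per 1000000 aligned reads (RPKM) were highest for Ctsd in every library, with 327 ± 1.999 (counting error) in CxH and 177 ± 1.57 in CxWT, and 157 ± 1.41 in MH and 292 ± 2.18 in MWT. Ctsd lay above 99.1% to 99.7% of the genes of a library. Ctsb, a cysteine protease that cuts both within chains and at their carboxyl end, followed with 105 to 145 RPKM. Ctss and Ctsz, the latter a carboxypeptidase, took the next 2 places in every library. Their order could not be told in CxWT, where Ctss was at 30.9 and Ctsz at 30.8 RPKM, or in MH, where they were at 29.1 and 30.0 RPKM. Ctsa, Ctsf and Ctsl filled the places from the fifth to the seventh at 10.8 to 32.5 RPKM. Within these, Ctsf and Ctsl in CxH, Ctsl and Ctsa in CxWT, and Ctsf and Ctsa in MH were within 2 counting errors of each other. Ctsh was eighth, Ctsc ninth and Ctsk last in every library, with Ctsh and Ctsc within 2 counting errors only in MWT. Ctsk, best known from bone-resorbing osteoclasts, was at 0.943 to 1.42 RPKM. With the mean length of the coding transcripts in place of the longest, the first, second and last 3 places were the same in every library, and Ctsa was changed by the largest factor, from 24.5 to 50.1 RPKM in CxH.

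**Figure D1:**
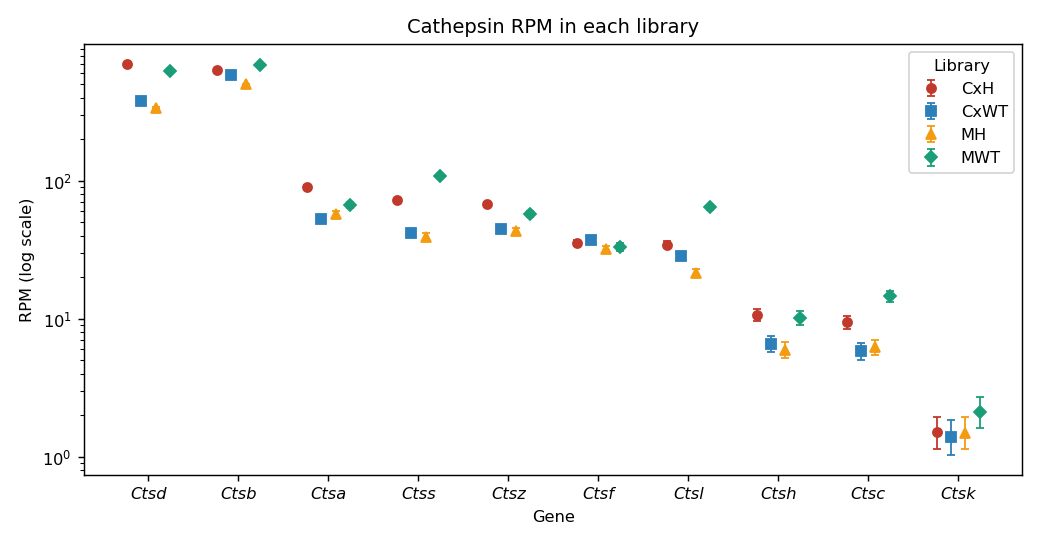
RPM of each cathepsin gene (x axis) on a log axis, with a marker for each of the 4 libraries and bars for the exact 95% counting interval. For 9 of the 10 genes the markers of CxH and MWT lie above those of CxWT and MH (for Ctsk by less than the counting error), and the markers of Ctsf lie between 32.0 and 37.1.

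Ctsd, the main aspartic protease of the lysosome, was at 697 RPM in CxH and 376 in CxWT, and 335 in MH and 621 in MWT. Ctss, which cleaves the invariant chain of class II molecules, was at 72.7, 41.9, 39.4 and 107 RPM in the same order of libraries. Both genes were high in the libraries labelled CxH and MWT and low in the other two. Ctsl, a broad endopeptidase, was at 34.5, 28.6, 21.4 and 64.0 RPM, so that MWT stood apart from the other 3 libraries. Ctsc, the dipeptidyl peptidase that activates the serine proteases of immune granules, was at 9.43, 5.83, 6.21 and 14.5 RPM. Ctsh, an aminopeptidase, was at 10.6, 6.60, 5.91 and 10.1 RPM. Both of these low genes again had their 2 highest values in CxH and MWT.

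Ctsa, which protects the sialidase Neu1 and the β-galactosidase Glb1 in a complex, was at 89.8 RPM in CxH and 52.4 in CxWT, and 57.4 in MH and 66.6 in MWT. Ctsz was at 67.9, 44.4, 43.2 and 57.5 RPM. In these genes CxH was highest. Ctsb was at 636, 580, 497 and 685 RPM, a span of 1.38-fold from the lowest to the highest library. Ctsf, a cysteine protease, spanned 1.16-fold, with 35.3, 37.1, 32.0 and 33.0 RPM. Ctsk was at 1.506, 1.398, 1.499 and 2.107 RPM, from 47 to 61 reads in a library. At this depth the likelihood ratio test of its reads passed p under 0.05 in 1 of the 6 pairs, CxWT vs. MWT.

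CxH and MWT were the 2 highest libraries for 9 of the 10 cathepsins, all but Ctsf, and for 9.04% of all 12700 genes. For Ctsk this rests on 58 reads in CxH and 56 in MH, and with scaling by column totals, TMM or DESeq2, tried after seeing the data, the count was 8 of 10, against 10.01% to 10.6% of genes. These are also the 2 libraries with the lower Ids. The opposite, CxWT and MH highest, held for 0 of 10 cathepsins and for 9.86% of genes. Summed over the members, cathepsins were at 1654 RPM in CxH and 1174 in CxWT, and 1039 in MH and 1661 in MWT. Ctsb and Ctsd together made 78.6% to 81.4% of these reads. Their balance differed between libraries. Ctsd had 42.1% of the cathepsin reads in CxH (exact 95% interval 41.7 to 42.5) and 37.4% in MWT (36.9 to 37.8), but 32.0% in CxWT (31.5 to 32.5) and 32.2% in MH (31.8 to 32.7). Ctsb took 38.4% and 41.2% in CxH and MWT, and 49.4% and 47.9% in CxWT and MH. Ctss had its largest share, 6.47%, in MWT. Without Ctsb and Ctsd the sums were 322, 218, 207 and 355 RPM, so the order of the high and low libraries was kept, with MWT above CxH.

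**Figure D2:**
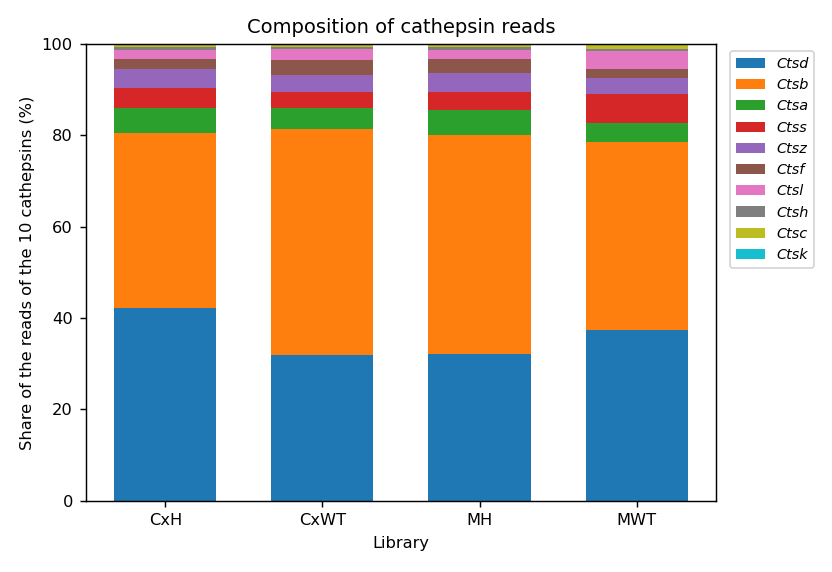
Stacked bars of the share (%) that each of the 10 cathepsin genes had among the cathepsin reads of each library. The Ctsd segment is 42.1% in CxH and 37.4% in MWT against 32.0% in CxWT and 32.2% in MH, and the Ctsb segment is the larger one in CxWT, MH and MWT.

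In cortex as labelled, CxH vs. CxWT, 3 cathepsins were called higher and 0 lower. A gene was called where the likelihood ratio test gave p under 0.05 together with a log2 ratio of 0.7 or more in either direction. Of all genes, 9.46% were called higher and 11.5% lower. Ctsd had a log2 ratio of 0.89 ± 0.016 (counting error), Ctss of 0.80 ± 0.047 and Ctsa of 0.78 ± 0.042, which are 1.85-, 1.74- and 1.72-fold. Ctsc (0.69 ± 0.13), Ctsh (0.69 ± 0.12) and Ctsz (0.62 ± 0.047) fell just short of the size asked for. Ctsl was at 0.27, Ctsb at 0.13, Ctsk at 0.11 and Ctsf at -0.070. The median of the members was 0.65, and that of all genes -0.093. With TMM or DESeq2 scaling Ctsc, Ctsh and Ctsz were called too. The genes called higher then rose from 1201 to 1447 (TMM) and 1429 (DESeq2). With a correction for GC content and length, Ctsa (0.60) and Ctsd (0.67) were not called and Ctsc (0.93) was.

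In M as labelled, MH vs. MWT, 5 cathepsins were called lower and 0 higher, where 12.7% of all genes were called lower and 12.3% higher. Ctsl had the largest difference, a log2 ratio of -1.58 ± 0.061, 3.00-fold lower in the library labelled MH. Ctss followed at -1.45 ± 0.046, 2.73-fold lower, and Ctsc at -1.23 ± 0.12, 2.34-fold lower. Ctsd was at -0.89 ± 0.017 and Ctsh at -0.78 ± 0.13. The others were below 0 without being called, with Ctsk at -0.49, Ctsb at -0.46, Ctsz at -0.41, Ctsa at -0.21 and Ctsf at -0.043. The median of the members was -0.63 against -0.066 for all genes. After correction for GC content and length Ctsh (-0.64) was not called and Ctsl was at -1.196. The library labelled MH was the one with more Ids, so the lower cathepsins were in the library of this pair with the higher Ids. In CxH vs. CxWT the same held for all but Ctsf.

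Between the libraries labelled Ids-ko, CxH vs. MH, 3 cathepsins were called higher in CxH and 0 lower, against 2.43% and 1.06% of all genes. These were Ctsd (1.06 ± 0.016, 2.08-fold), Ctss (0.88 ± 0.046) and Ctsh (0.84 ± 0.12). Ctsl (0.69), Ctsz (0.65), Ctsa (0.65) and Ctsc (0.60) had ratios close below the size asked for. The correction for GC content and length added Ctsc (0.74) and Ctsl (0.78) to the calls. Between the libraries labelled wt, CxWT vs. MWT, 4 cathepsins were called lower in CxWT and 0 higher, against 2.11% and 5.43% of all genes. Ctss was at -1.36 ± 0.046, Ctsc at -1.32 ± 0.12, Ctsl at -1.16 ± 0.057 and Ctsd at -0.72 ± 0.017. Both pairs were of libraries with like summed area markers. Of 13 midbrain and diencephalon markers, 1 was called higher and 3 lower in CxH vs. MH, and 1 higher in CxWT vs. MWT. In both pairs the library with the lower Ids had the higher value for most cathepsins. Ctsf went the other way in CxWT vs. MWT (0.17 ± 0.062), and Ctsk was level in CxH vs. MH (0.0073 ± 0.27). The member medians were 0.65 for CxH vs. MH and -0.60 for CxWT vs. MWT, with 0.015 and 0.045 for all genes. The 4 comparisons share their libraries in pairs and are not independent of each other. Genotype and area were also fitted together over the 4 libraries as labelled, by edgeR's quasi-likelihood test with 1 residual degree of freedom. In this fit 0 cathepsins were called for either factor, and 0 had an unadjusted p under 0.05. The fit adds genotype and area, so ratios of opposite sign in the areas enter its residual. It therefore cannot decide on the pattern above. Ctsd, with ratios of 0.89 in cortex and -0.89 in M as labelled, had 0.00066 for genotype.

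**Figure D3:**
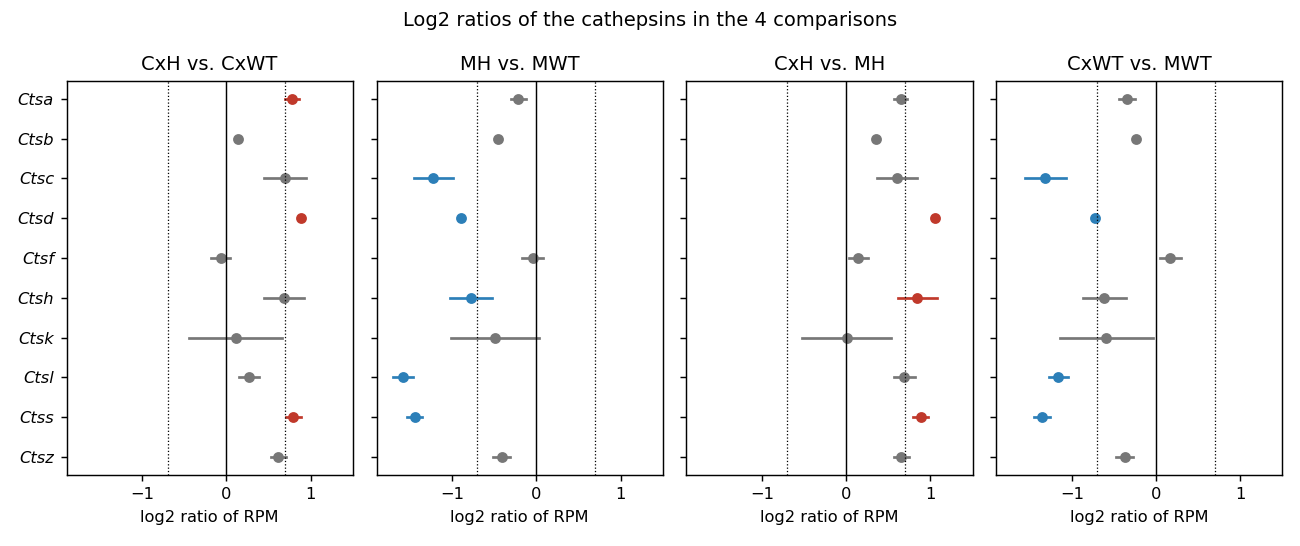
Log2 ratio of RPM (x axis) of each cathepsin in the 4 comparisons of libraries as labelled, with lines for the 95% counting interval and dotted lines at 0.7 and -0.7. Red points were called higher, blue lower and grey not called; the red points number 3 in CxH vs. CxWT and 3 in CxH vs. MH, and the blue points 5 in MH vs. MWT and 4 in CxWT vs. MWT.

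For CxH vs. MWT, the libraries with the lower Ids, 1 cathepsin was called lower (Ctsl, -0.89 ± 0.052) and 0 higher, while 15.1% of all genes were called lower and 15.6% higher. With the GC and length correction Ctsl was at -0.41 and not called. Ctss (-0.56) and Ctsc (-0.63) were also lower in CxH than in MWT, by less than the size asked for, and Ctsa was at 0.43. In MH vs. CxWT, the libraries with the higher Ids, 0 cathepsins were called in either direction by the likelihood ratio test, with 5 at an unadjusted p under 0.05 (Ctsa, Ctsb, Ctsd, Ctsf and Ctsl), against 6.41% of all genes called higher and 8.89% lower. The ratios there ran from -0.42 for Ctsl to 0.13 for Ctsa. The summed cathepsins had a log2 ratio of -0.0059 ± 0.0087 in CxH vs. MWT and of -0.18 ± 0.010 in MH vs. CxWT, while it was 0.50 ± 0.0092 in CxH vs. CxWT and -0.68 ± 0.0098 in MH vs. MWT.

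Of a list of 11 other proteases of the lysosome, 7 were in the table. None was called in CxH vs. CxWT or CxH vs. MH, with a median log2 ratio of 0.090 and 0.27. In MH vs. MWT and CxWT vs. MWT all 7 were below 0, with medians of -0.46 and -0.18. The median was -0.29 in CxH vs. MWT, where Ctso (-0.80 ± 0.053) and Cpq (-0.78 ± 0.092), a carboxypeptidase, were called lower, and -0.19 in MH vs. CxWT, where none was called. One, Scpep1, a serine carboxypeptidase related to Ctsa, was called lower in MH vs. MWT (-0.92 ± 0.12) and in CxWT vs. MWT (-0.78 ± 0.12). It was at 9.61 RPM in CxH and 6.99 in CxWT, and 6.34 in MH and 12.02 in MWT, again with CxH and MWT highest. Lgmn, the asparaginyl endopeptidase that processes cathepsin precursors, was at 138, 127, 101 and 139 RPM. Tpp1, a tripeptidyl peptidase, was at 65.5, 70.7, 61.9 and 80.1 RPM. Ctso, a cathepsin that was on this list and not among the members, was at 33.8, 48.2, 41.5 and 58.7 RPM, with CxH lowest.

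Of 9 cystatins, the protein inhibitors of cysteine cathepsins, 3 were in the table. Cst7, which inhibits cathepsins within the endolysosomal system, was at 3.43 RPM in CxH and 1.16 in CxWT, and 1.07 in MH and 2.31 in MWT. It was called higher in CxH vs. CxWT (1.56 ± 0.26) and CxH vs. MH (1.68 ± 0.26), and lower in MH vs. MWT (-1.11 ± 0.29) and CxWT vs. MWT (-0.997 ± 0.29). Cstb, a cytosolic inhibitor, was called lower in MH vs. MWT (-0.78 ± 0.11), with 11.1, 10.47, 8.75 and 15.1 RPM. Cst3, the abundant secreted cystatin C, was at 434, 298, 309 and 351 RPM and was called in none of the 4 comparisons.

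All 9 genes of the list of partners and sorting were measured. Neu1 and Glb1, which share a complex with the Ctsa protein, had ratios between -0.34 and 0.34 in the 4 comparisons and were not called. Psap, the precursor of the saposins, was the most read of the list at 816 to 1031 RPM and was not called. Among the genes that make or bind the mannose phosphate tag, Nagpa, the uncovering enzyme, was called higher in CxH vs. MH (0.80 ± 0.12). Its values were 10.1 RPM in CxH and 7.14 in CxWT, and 5.83 in MH and 5.63 in MWT. The receptors M6pr and Igf2r were not called, and Igf2r stayed between 21.7 and 22.1 RPM. Sort1, sortilin, was called higher in the library labelled MH than in MWT (0.83 ± 0.021), where the cathepsins were lower, and had a log2 ratio of 0.48 in CxH vs. CxWT, where they were higher. Both Sort1 (0.78) and Nagpa (0.85) were called higher in CxH vs. MWT. Of the MiT/TFE factors, Tfeb, Tfe3 and Mitf were in the table, 3 of 4, and none was called in any of the 6 pairs by the likelihood ratio test. Tfe3 was at 32.4, 27.1, 28.7 and 21.2 RPM, with a log2 ratio of 0.43 in MH vs. MWT.

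Of the 6 genes of class II antigen presentation, 5 were in the table. Ifi30, a thiol reductase of lysosomes, was called in all 4 comparisons, higher in CxH vs. CxWT (1.27 ± 0.18) and CxH vs. MH (1.06 ± 0.17), lower in MH vs. MWT (-0.79 ± 0.18) and CxWT vs. MWT (-0.996 ± 0.20). Cd74, the invariant chain cleaved by the Ctss protein, was at 10.1 RPM in CxH and 8.83 in CxWT, and 7.79 in MH and 5.56 in MWT. H2-Aa, H2-Ab1 and H2-Eb1, the class II chains, were at 1.59 to 6.00 RPM and, like Cd74, were called in none of the 4. MWT, where Ctss was highest, had the lowest value of all 4 of these genes.

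**Figure D4:**
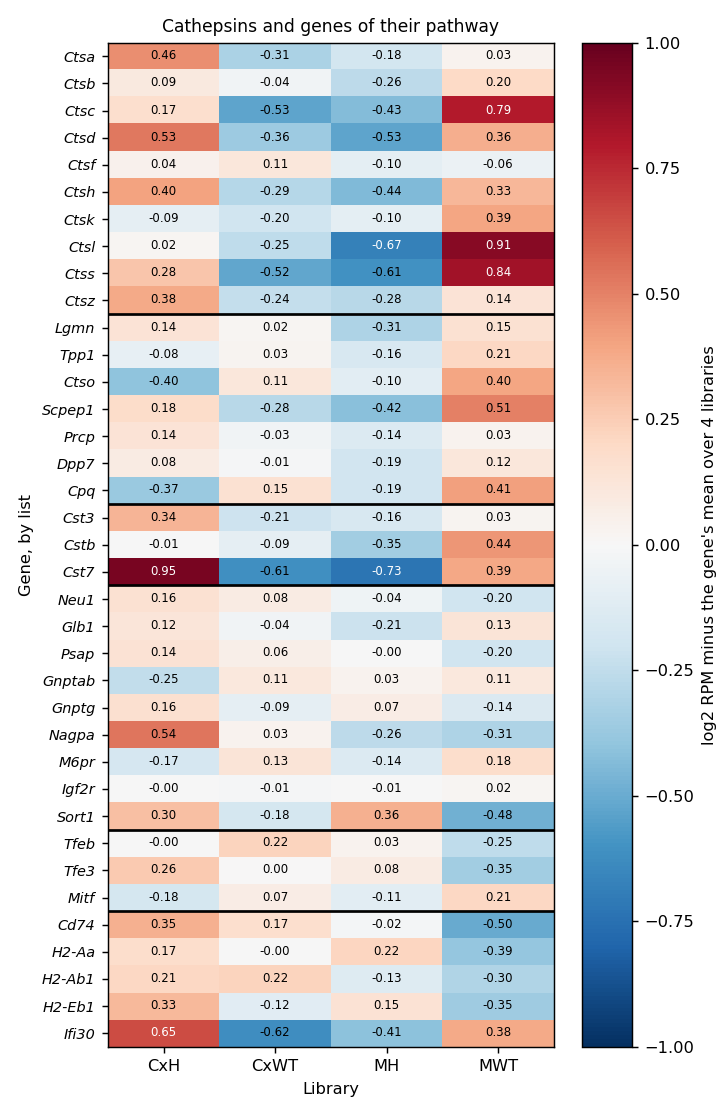
Log2 RPM of each gene minus its mean over the 4 libraries (colour scale from -1 to 1, values printed in the cells); rows are the 10 cathepsins and, below black lines, the other lysosomal proteases, cystatins, partners and sorting genes, MiT/TFE factors and class II genes found in the table. Rows of Ctsd, Ctss, Scpep1, Cst7 and Ifi30 are red in CxH and MWT and blue in CxWT and MH, while Igf2r is near 0 throughout.

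Markers of some cell types moved with the cathepsins, while those of others did not. The part of cell types in these differences was not tested. Of 16 markers of activated microglia, 14 were in the table and none was at 0. Of these, 11 were called higher and 1 lower in CxH vs. CxWT, 1 higher and 9 lower in MH vs. MWT, 10 higher and 0 lower in CxH vs. MH, and 0 higher and 9 lower in CxWT vs. MWT. Their summed level was 282 RPM in CxH and 147 in CxWT, and 143 in MH and 276 in MWT. Lyz2, a lysozyme whose reads may be shared with its near-identical neighbour Lyz1, and Tyrobp, a microglial signalling adaptor, were at 75.6 and 18.9 RPM in CxH and at 77.4 and 21.0 RPM in MWT, against 19.8 and 7.38 in CxWT and 20.3 and 7.44 in MH. Spp1, Lpl and Axl on this list did not have CxH and MWT highest. In the order CxH, CxWT, MH and MWT, Spp1 was at 11.1, 21.6, 8.56 and 31.1 RPM. Lpl was at 9.38, 4.49, 10.2 and 5.80 RPM, and Axl at 49.6, 43.4, 37.1 and 40.2 RPM. Spp1 was the marker called lower in CxH vs. CxWT, and Lpl the one called higher in MH vs. MWT. Cst7 is on this list as well as among the cystatins. Markers of homeostatic microglia (8 of 10, none at 0) were at 376, 231, 289 and 295 RPM. Of these, 3 were called higher in CxH vs. CxWT and 1 in CxH vs. MH, and 1 was called lower in MH vs. MWT and 1 in CxWT vs. MWT. Neutrophil markers (3 of 4) were at 5.90, 3.12, 1.87 and 5.35 RPM, all low. Of these, 3 were called higher in CxH vs. CxWT and 3 in CxH vs. MH, and 2 were called lower in MH vs. MWT and 2 in CxWT vs. MWT. Border macrophage markers (2 of 4) were at 8.67, 6.37, 7.04 and 8.43 RPM.

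Astrocyte markers (7 of 7) summed to 3060 RPM in CxH and 2143 in CxWT, and 2549 in MH and 2722 in MWT. Of these, 2 were called higher and 1 lower in CxH vs. CxWT, and 0 higher and 3 lower in MH vs. MWT. In CxH vs. MH 1 was called higher, and in CxWT vs. MWT 1 lower. Gfap, the intermediate filament of reactive astrocytes, was at 603, 280, 253 and 555 RPM in the same order. Aqp4, the water channel of astrocyte endfeet, was instead at 136, 237, 143 and 353 RPM and was called lower in CxH vs. CxWT and MH vs. MWT. Oligodendrocyte markers (6 of 6) summed to 4762, 9056, 4947 and 7174 RPM, higher in the libraries labelled WT. Of these, 6 were called lower in CxH vs. CxWT and 3 in MH vs. MWT, while 0 were called in CxH vs. MH and 1 was called higher in CxWT vs. MWT. Neuronal markers (6 of 6) summed to between 2746 and 2996 RPM, and 1 of them, Rbfox3, was called higher in CxH vs. CxWT (1.43) and in MH vs. MWT (1.61). Endothelial markers (5 of 5) were at 138, 90.2, 101 and 102 RPM, with a median log2 ratio of 0.59 in CxH vs. CxWT, -0.12 in MH vs. MWT and 0.41 in CxH vs. MH. Choroid plexus markers (6 of 6) were at 571, 150, 630 and 272 RPM, most of it Ttr (537, 113, 583 and 221 RPM), while Prlr was at 4.05, 24.0, 10.1 and 26.3 RPM, and meningeal fibroblast markers (3 of 4) at 25.4 to 33.4 RPM. The single red cell marker in the table, Hba-a1 (a near copy of Hba-a2), was at 118, 246, 176 and 70.1 RPM, with MWT and CxH lowest.

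**Figure D5:**
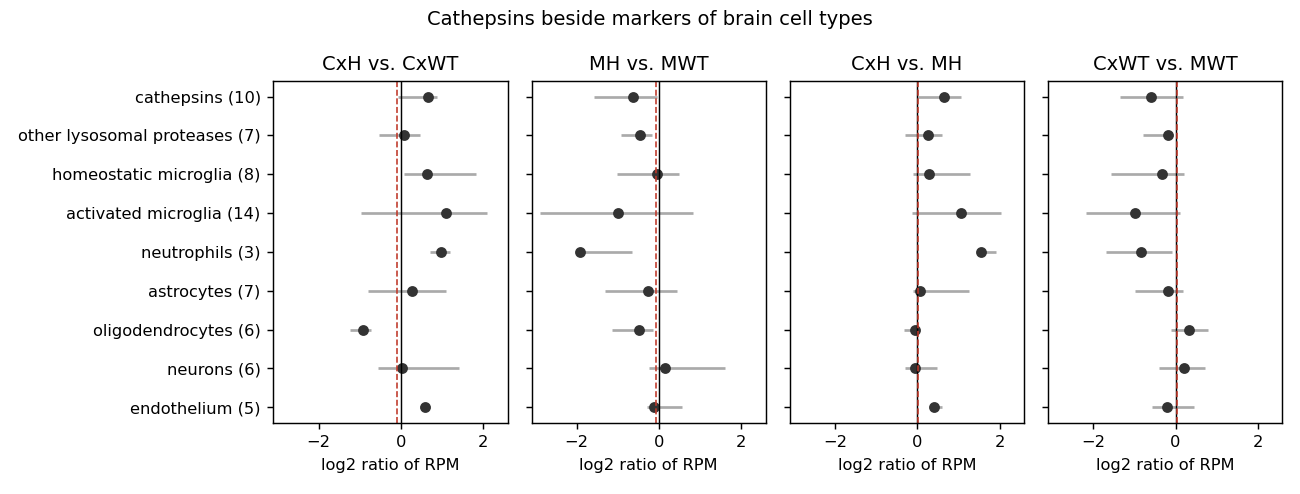
Median log2 ratio of RPM (points) and range from the lowest to the highest gene (lines) for the cathepsins, the other lysosomal proteases and markers of brain cell types, with the number of genes in the table in brackets; the dashed red line is the median of all genes. Cathepsin medians are 0.65, -0.63, 0.65 and -0.60 in the 4 comparisons of libraries as labelled, and those of activated microglia markers 1.09, -1.01, 1.07 and -0.99.

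The genes with the pattern most like Ctsd and Ctss over the 4 libraries were sought among 11010 genes that had 100 or more reads in each library, by the Euclidean distance of log2 RPM centred on the gene's mean. For Ctsd the 5 nearest were Fcer1g (distance 0.10), Ifitm3 (0.11), C4a (0.12), Uqcrq (0.20) and Trem2 (0.20). Reads of C4a may be shared with its near-identical neighbour C4b. For Ctss the 5 nearest were Ly86 (0.21), Mpeg1 (0.23), Mrps21 (0.27), Tlr13 (0.27) and Mrpl20 (0.29). Fcer1g and Trem2 are on the list of activated microglia markers, and Uqcrq, Mrps21 and Mrpl20 encode mitochondrial proteins.

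By position (NCBI37/mm9) the members lie on 7 chromosomes. Ctsk (chr3:95303208-95313284) and Ctss (chr3:95330708-95360325) are neighbours on the plus strand with 17423 bases between them, and their RPM differed in how far apart the libraries were, 1.51-fold for Ctsk and 2.73-fold for Ctss between the highest and the lowest. Ctsd lies at chr7:149557053-149573943 on the minus strand and Ctsl at chr13:64464522-64471614 on the minus strand. Transcript GC content ranged from 43.9% for Ctsc to 57.3% for Ctsz. Across 10812 genes the log2 ratio correlated with GC content (Spearman's rho 0.46 in CxH vs. CxWT, 0.49 in MH vs. MWT, 0.58 in CxH vs. MH, 0.63 in CxWT vs. MWT), most of all in CxH vs. MWT (0.68) and least in MH vs. CxWT (0.16), a description over genes of the same libraries. Among the members, Ctsl, Ctsc and Ctss are low in GC content (44.7%, 43.9% and 46.0%) and Ctsd is high (55.9%). Without the GC and length correction, Ctss and Ctsd were called in the 4 comparisons. With it, Ctsd was not called in CxH vs. CxWT, and its log2 ratio in CxH vs. MWT was -0.22. The part of GC content in these differences was not tested.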

How the data were processed

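Poly(A) RNA from pools of 7 mice was sequenced on the SOLiD platform with 1 library per condition. The authors aligned reads with PASS 2.10 to NCBI37/mm9, allowing at most 2 mismatches and no gaps and taking the top alignment. Reads falling on more than one gene and genes read along 50% of their length or less were dropped, and raw counts per gene were deposited. The gene annotation they used is not given in the sources used here. The 4 columns held 16380080 to 23475080 reads on genes, 56.6% to 61.0% of the aligned reads. At this depth 3 reads, the limit a count of 0 allows, are 0.0779 to 0.104 RPM. Intervals cover counting error only.

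From the counts, RPM was computed with the study's aligned reads, and each pair of libraries was compared over all 12700 genes by a Poisson likelihood ratio test (a 0 was set to 1 for the ratio), with calls at p under 0.05 where the log2 ratio reached 0.7 in size. Errors are the square root of the summed inverse counts, on the log2 scale. As there is no spread between replicates, p-values describe the libraries. The test was checked on simulated counts. Its pass condition was set on counts with Poisson error only, so the check does not show the error rate in libraries that vary more. Transcript lengths, GC content and positions came from GENCODE (mm9) for 12353 genes, symbols from RefSeq for 12690, and the windows before gene starts from RefSeq (GRCm38.p6). Alternatives were other scalings (column totals, TMM of edgeR 4.0.16, size factors of DESeq2 1.42.0), thresholds and filters, an added count of 0.5, a GC and length correction, edgeR's exact test with an assumed variation of 0.1 or 0.2, and an additive quasi-likelihood fit of genotype and area. Python 3.11.15, scipy 1.17.1 and R 4.3.3 were used.

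The cathepsins, the 5 pathway lists and the 13 marker lists were chosen with earlier results of these data known. All 10 cathepsins are named whatever they did, and so may be any gene of the pathway lists; likeness was sought for Ctsd and Ctss, and levels are compared between genes only per length. One gene of the cortical marker list is not reported here and was left out of its sums.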

Additional observations from a re-analysis of the deposited data

Results flagged for a closer look

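Of the cathepsins 9, and also Ids, were picked out because their log2 ratio in CxH vs. CxWT had the opposite sign to that in MH vs. MWT, with the libraries as labelled. With 1 library per condition this difference was not tested. The ratio in cortex minus that in M was 2.24 for Ctss, 1.92 for Ctsc, 1.86 for Ctsl, 1.78 for Ctsd and 1.46 for Ctsh. It was 1.03 for Ctsz, 0.99 for Ctsa, 0.60 for Ctsk and 0.59 for Ctsb, and it was -2.63 for Ids. The same number is the ratio in CxH vs. MH minus that in CxWT vs. MWT, since the same 4 libraries enter. The median over all genes was -0.073; 3.31% of genes and 6 of 10 cathepsins were above 1. The markers of area and the level of Ids go against the labels of the libraries, so the direction holds for the libraries as labelled.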

How the results depend on the processing

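Within a comparison of 1 library with 1, no replicate could be left out. A paired fit over the 4 libraries as labelled (edgeR's quasi-likelihood test, 1 residual degree of freedom), chosen after seeing the data, called 0 cathepsins and 2369 genes for Ids-ko against wt with area as replicate block, and 0 cathepsins and 0 genes (615 at an unadjusted p under 0.05) for Cx against M with the animal pool as block; the lowest adjusted p of a cathepsin was 0.277 and 0.836. Cathepsin ratios of opposite sign in the areas fall into the residual of this fit. Its count of 0 cathepsins therefore does not show how stable their ratios are. Over the 654 alternatives to the cathepsin ratios, 605 kept direction and side of the threshold, 18 were no longer called, 11 became called and 20 turned sign. In CxH vs. CxWT, 3 cathepsins were called, all higher. TMM and DESeq2 scaling gave 6, a log2 ratio of at least 1 gave 0 (8 with an unadjusted p under 0.05) and an assumed variation of 0.2 gave 1. Of all genes, 1201 were called higher as reported, 1447 with TMM and 1429 with DESeq2. It was 691 at a log2 ratio of 1 and 881 with an assumed variation of 0.2. At a log2 ratio of 1, MH vs. MWT had 3 (5 as reported) and CxH vs. MH 1 (3 as reported), and GC and length correction gave 5 in CxH vs. MH. Genes called at a log2 ratio of 1 were 1401 in CxH vs. CxWT (2658 as reported), 1642 in MH vs. MWT (3170), 143 for CxH vs. MH (444) and 295 for CxWT vs. MWT (958). For the pairs CxH vs. MH and CxWT vs. MWT they were 201 and 628 with at least 100 reads in every library, 191 and 487 with an assumed variation of 0.2, and 293 and 364 with GC and length correction.

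The ratios that turned sign lay between -0.32 and 0.070 after it. For Ctsf they were 0.023 (TMM) and 0.017 (DESeq2) in CxH vs. CxWT, 0.015 and 0.017 in MH vs. MWT, -0.0087 with column totals in CxH vs. MWT, and -0.044, -0.019 and -0.32 with GC correction for CxH vs. MH, CxWT vs. MWT and CxH vs. MWT. For Ctsk in CxH vs. MH they were -0.039 (column totals), -0.0070 (TMM), -0.014 (DESeq2) and -0.040 (GC correction). In CxH vs. MWT, GC correction gave -0.22 for Ctsd and -0.20 for Ctsz, and column totals gave -0.038 for Ctsh. In MH vs. CxWT, Ctss was at 0.018 (TMM), 0.020 (DESeq2) and 0.022 (GC correction), and Ctsz at 0.069 and 0.070 (TMM, DESeq2). The cause was not tested. Scaling moved the median of all genes by at most 0.11, and the share of calls that were higher moved from 45.2% to 56.0% (TMM) and 55.4% (DESeq2) in CxH vs. CxWT, from 49.1% to 56.1% and 56.3% (42.1% with column totals) in MH vs. MWT, from 41.9% to 54.2% and 54.4% in MH vs. CxWT, and with column totals from 69.6% to 58.4% in CxH vs. MH, 72.0% to 55.2% in CxWT vs. MWT and 50.8% to 39.1% in CxH vs. MWT. Benjamini-Hochberg adjustment, an assumed variation of 0.1 and an added count of 0.5 changed no cathepsin call. Depth limits Ctsk most, with 47 to 61 reads a library.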
